A study of Arabidopsis thaliana with 76 samples.

Results

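The morning response of the starchless mutant *pgm* was measured as the difference between its ZT2 libraries and its ZT0 libraries, where ZT0 is dawn and ZT2 is 2 h after lights on. The comparison took in every *pgm* library grown at 17°C, 2 at ZT0 and 2 at ZT2, which are 4 of the 76 samples of the series. All *pgm* seedlings were in the Col-0 background and carried the *pgm* mutation, whose allele is not given in the sources used here. They grew at a constant 17°C in short days of 8 h light and 16 h dark under 170 μmol light, and the labels give a pool of 25 seedlings per library, where the study's methods give a range with 25 as its upper end. The *ss3/4* double mutant, the *ss3/4/pgm* triple mutant and the wild type (WT) were grown the same way, with 2 libraries at each of the same times. They were used to ask whether the *pgm* change differed from theirs. The *ss3/4* and *ss3/4/pgm* libraries also shared the fit of the *pgm* comparison, and so its scaling, gene filter and estimate of spread. No WT library entered the *pgm* comparison. Whether the replicate libraries came from separate sowings is not stated, so p-values measure only the spread between these libraries.

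*PGM1* encodes the plastid phosphoglucomutase, which makes the glucose 1-phosphate used for starch synthesis. Leaves normally store starch in the light and break it down through the night. Without that starch, soluble sugars run out early in the night, and sugar starvation genes, amino acid breakdown and autophagy are known to be turned on until light returns. SnRK1, a kinase whose catalytic subunits are KIN10 and KIN11, is a main sensor of such energy shortage in plants, and the TOR kinase acts on the side of growth. SS3 and SS4 are soluble starch synthases that lengthen the glucan chains and start new granules.

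Levels are given as CPM, that is, counts relative to the library total after TMM scaling, and a change is the log2 fold change of ZT2 over ZT0 with its standard error (SE), tested with the quasi-likelihood test of edgeR on 2 against 2 libraries and with Benjamini-Hochberg adjustment over all genes tested. The counts per library were 6836099 and 3204754 at ZT0 and 6397776 and 8012494 at ZT2. Replicate 2 of ZT0 stood apart from the other 3 *pgm* libraries with the lowest depth, 0.338% of its counts in mitochondrial genes against 0.0384% to 0.161%, and 2.03% in nuclear ribosomal RNA genes against 0.753% to 1.81%. Pearson's r of log2 CPM across genes, which are not independent replicates, was 0.992 between ZT0 replicate 1 of *pgm* and of *ss3/4/pgm* and 0.984 between the *pgm* ZT0 replicates. Leaf markers made up 25521 and 40087 CPM in the ZT0 libraries by summed level and 23984 and 16183 CPM in the ZT2 libraries, with 3 of 5 lower, and only 1 of 5 without ZT0 replicate 2 or without ZT2 replicate 2. Root markers summed to 1109 and 1163 CPM at ZT0 and 823 and 913 CPM at ZT2, with 2 of 9 higher (1 without any single library) and 3 lower, and seed storage markers to at most 0.570 CPM in any *pgm* library. The part of other cell types in the results was not tested. In seedling RNA, fewer cells of a type and less RNA per cell cannot be told apart.

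The targeted gene was low in *pgm* at both times. *PGM1* (AT5G51820, chromosome 5, 21063368 to 21068057 in TAIR10) stood at 8.81 and 11.7 CPM at ZT0 and 25.2 and 22.7 CPM at ZT2 in *pgm* and at 86.8 to 100.04 CPM across the WT libraries. In *ss3/4/pgm* it stood at 11.3 to 24.9 CPM and in *ss3/4* at 59.6 to 70.1 CPM. The remaining transcript rose within *pgm* (log2 fold change 1.28 ± 0.16 (SE), adjusted p = 3.76e-06). *SS3* stood at 68.0 to 82.2 CPM in the *pgm* libraries and at 20.6 to 26.6 CPM in the libraries labelled *ss3/4* and *ss3/4/pgm*, whereas *SS4* was not lower in *ss3/4* (48.7 to 54.0 CPM) than in *pgm* (20.7 to 33.3 CPM).

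Of 19481 nuclear genes tested, 5689 (29.2%) were higher at ZT2 and 5736 (29.4%) were lower at an adjusted p under 0.05, with a median log2 fold change of 0.03. Of these, 3402 (17.5% of those tested) rose and 2652 (13.6%) fell by at least 2-fold, and 534 rose and 318 fell by at least 8-fold. The counts of each gene list are read against these shares. Without ZT0 replicate 2, 4932 genes were higher and 5242 were lower.

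The genes that fell furthest were led by genes of little known function. Among the 10 largest falls that reached 10 CPM at ZT0, the transcript of *AT3G48390*, which encodes a protein with an MA3 domain, stood at 218 and 188 CPM at ZT0 and 1.12 and 0.228 CPM at ZT2 (log2 fold change -8.37 ± 0.26). *PP2-A13*, a phloem protein gene, stood at 231 and 201 CPM at ZT0 and 2.07 and 1.71 CPM at ZT2, and *BT2*, whose BTB and TAZ domain protein is known to be repressed by sugar, at 884 and 955 CPM at ZT0 and 14.2 and 10.03 CPM at ZT2 (log2 fold changes -6.85 ± 0.21 and -6.27 ± 0.39). *OXS3*, *ACHT5* (an atypical thioredoxin of the plastid), *AT2G17880* (a DnaJ-domain protein) and *AT4G32480* fell by 6.26 to 6.87 on the log2 scale. The remaining 3 had almost no counts left at ZT2: the thioredoxin superfamily gene *AT3G62950* was lower by 757-fold (95% counting interval 135 to 29969), *AT2G25200* by 169-fold (95% counting interval 46.0 to 1401) and *AT1G15840* by at least 59.3-fold, the last of these against the floor of 3 counts over both libraries. Intervals and floors cover counting error only.

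Among the 10 largest rises, 5 belong to sulfur, glucosinolate and glutathione metabolism by their annotation or the lists used here, and 7 had no count at all in either ZT0 library. *LSU2*, a gene known for its response to low sulfur, was at 0 in both ZT0 libraries and at 145 and 161 CPM at ZT2, at least 456-fold higher than the floor of 3 counts. By the same measure *LSU3* was at least 95.1-fold higher, *FMO GS-OX3* (which oxidises the sulfur of glucosinolate side chains) at least 60.4-fold, *SERAT3;2* (serine acetyltransferase, on the way to cysteine) at least 46.8-fold, the heat shock factor *HSFA2* at least 41.5-fold, the defensin-like gene *AT1G13608* at least 36.8-fold and *MGDC* (*MGD3*, a galactolipid synthase) at least 31.1-fold. The plastid glucose 6-phosphate translocator *GPT2* rose from 0 and 0.379 to 94.6 and 81.5 CPM, a ratio of 772-fold (95% counting interval 138 to 30527). The ChaC-like gene *AT5G26220*, of a family that breaks down glutathione, rose from 0.320 and 0 to 68.3 and 125 CPM, and the F-box gene *AT4G34550* rose from 0.160 and 0 to 50.9 and 42.4 CPM.

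All 24 tested sugar starvation markers fell between ZT0 and ZT2, each by more than 2-fold, with a median log2 fold change of -4.63 against 0.03 over all nuclear genes, where 29.4% were lower. These are genes known to be turned on when sugar is short, among them the dark-inducible (*DIN*) genes. Some class II trehalose phosphate synthases, such as *TPS8* and *TPS11*, are on the list. *TPS5* and *TPS7* of that class are not, and they did not fall (given below). *ASN1* (AT3G47340, chromosome 3, 17437884 to 17441243), the dark-induced asparagine synthetase that packs nitrogen into asparagine, stood at 2939 and 3237 CPM at ZT0 and 184 and 143 CPM at ZT2 (log2 fold change -4.24 ± 0.23 (SE), adjusted p = 7.65e-11). *DIN10*, a raffinose synthase-like gene, stood at 2598 and 2817 CPM at ZT0 and 86.0 and 81.0 CPM at ZT2 (log2 fold change -5.02 ± 0.21 (SE), adjusted p = 3.12e-12). Both ZT0 libraries lay far above both ZT2 libraries in each of these genes.

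The smallest fall of the list was that of *DIN9*, a phosphomannose isomerase gene, from 42.9 and 41.6 to 15.1 and 15.95 CPM (log2 fold change -1.44 ± 0.13). *SEN1* and *DIN2* (*BGLU30*) fell by 2.51 and 2.64 on the log2 scale, while *BT2*, *AT3G15450*, *KMD1* (an F-box protein that directs breakdown of cytokinin response regulators), *TZF1* (a zinc finger protein found in RNA granules) and *TPS11* fell by 5.70 to 6.27. *TPS8* was at 250.3 and 223 CPM at ZT0 and 5.42 and 4.90 CPM at ZT2 (log2 fold change -5.53 ± 0.15 (SE), adjusted p = 9.81e-14). *AKINBETA1*, the beta subunit gene of SnRK1, fell from 535 and 602 to 14.5 and 15.2 CPM, and *BAM9*, a beta-amylase without known catalytic activity, fell from 614 and 704 to 45.0 and 37.0 CPM. *BZIP1*, the 25th gene of the list, was listed at 0 in every library.

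**Figure D1:**
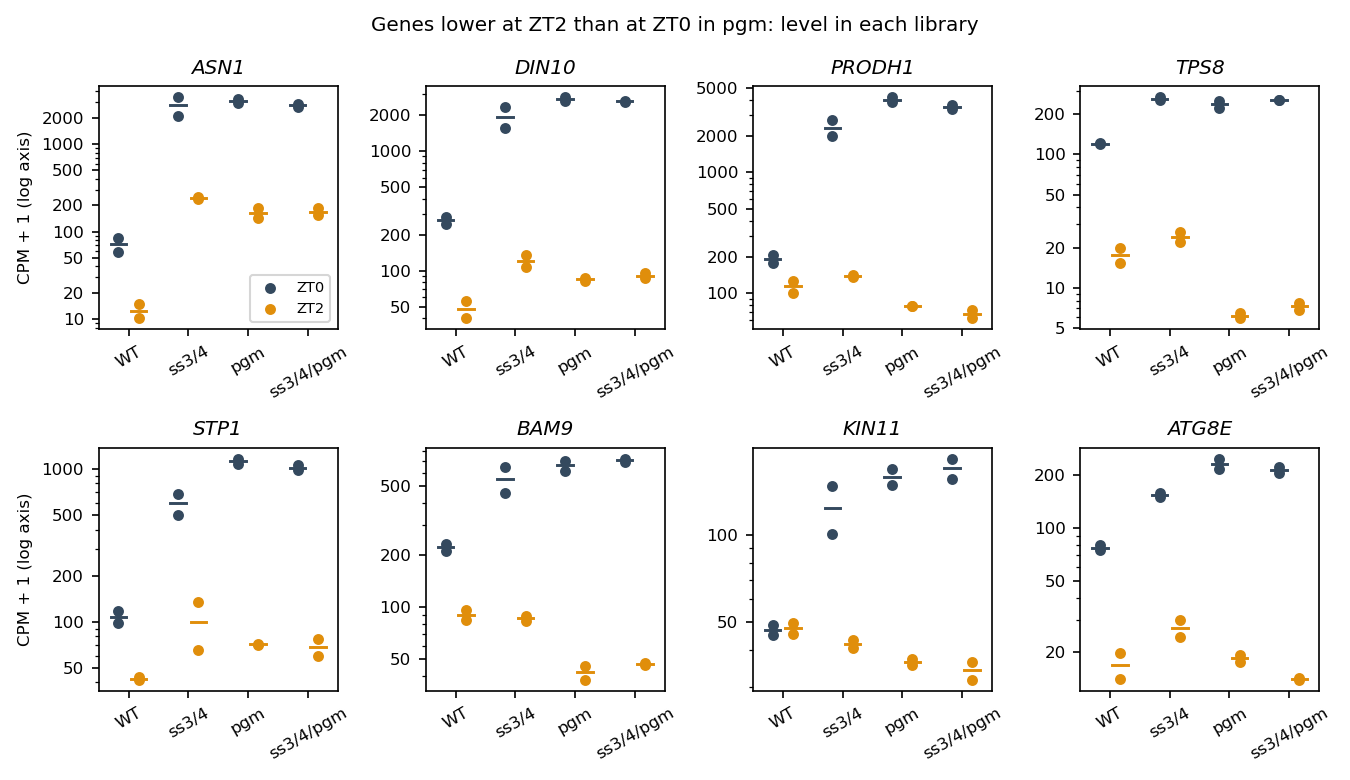
Levels of 8 genes that fell in the *pgm* morning, as CPM + 1 on a log axis, for *pgm*, *ss3/4/pgm*, *ss3/4* and WT at ZT0 (dark) and ZT2 (orange). Points are libraries (2 per group) and bars are means. In *pgm*, both ZT0 points lie above both ZT2 points in every panel, for *ASN1* at 2939 and 3237 CPM against 184 and 143 CPM.

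The 250 bases before the annotated start of 2 of these genes are shown because TATCCA, a motif long described in sugar-repressed promoters, occurs in both. TATCCA, on either strand, was found in the promoters of 9 of the 24 sugar starvation markers (37.5%) and in 14.1% of the 19465 tested nuclear genes with a promoter window. Across the other lists its share ran from 4.55% (circadian clock) to 47.1% (autophagy), with the antenna genes at 38.1%, so a high share was not particular to the starvation markers. Sequences are from RefSeq on TAIR10.1, 5′ to 3′, with the motif in capitals. That of *ASN1* is chr3:17441432-17441681, minus strand, with the motif 101 to 96 bases before the start, and that of *TPS11* is chr2:8108648-8108897, plus strand, with the motif 141 to 136 bases before it. A match describes letters in a window and no bound factor.
ASN1: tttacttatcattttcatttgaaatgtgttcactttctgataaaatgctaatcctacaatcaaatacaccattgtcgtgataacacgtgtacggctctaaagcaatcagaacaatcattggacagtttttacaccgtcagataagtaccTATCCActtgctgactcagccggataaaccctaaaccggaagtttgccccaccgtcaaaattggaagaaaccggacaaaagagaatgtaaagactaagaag
TPS11: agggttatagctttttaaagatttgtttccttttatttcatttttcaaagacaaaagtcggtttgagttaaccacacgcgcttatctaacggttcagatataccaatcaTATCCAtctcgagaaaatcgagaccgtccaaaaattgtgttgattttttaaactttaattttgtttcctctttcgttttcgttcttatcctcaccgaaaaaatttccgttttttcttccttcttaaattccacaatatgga

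Amino acid breakdown fell along with the starvation markers. Of 20 genes of amino acid catabolism and of the electron transfer flavoprotein route, which feeds electrons from that breakdown into the mitochondrial respiratory chain, 19 were lower and none was higher, with a median log2 fold change of -3.22. *PRODH1* (AT3G30775, chromosome 3, 12448636 to 12451248, annotated *ERD5*), the first enzyme of proline breakdown, stood at 3812 and 4194 CPM at ZT0 and 77.3 and 77.8 CPM at ZT2 (log2 fold change -5.69 ± 0.20 (SE), adjusted p = 5.79e-13). For leucine, valine and isoleucine, *BCKDH-E1A1* and *DIN4*, subunits of the branched-chain keto acid dehydrogenase, fell from 769 and 784 to 35.6 and 36.5 CPM and from 493 and 538 to 36.7 and 38.6 CPM. *MCCA*, a methylcrotonyl-CoA carboxylase subunit of leucine breakdown, fell from 1250.3 and 1308 to 61.9 and 59.1 CPM (log2 fold change -4.40 ± 0.17 (SE), adjusted p = 1.71e-12). In each of these genes both ZT0 libraries lay above both ZT2 libraries.

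Other branches fell less. *LKR/SDH*, the lysine breakdown enzyme, and *HPPD*, of tyrosine breakdown, fell by 3.44 and 2.67 on the log2 scale. *GDH1* and *GDH2*, the glutamate dehydrogenases that return amino nitrogen as ammonium, fell by 2.42 and 3.11. *ETFQO*, which passes the electrons to ubiquinone, fell from 252 and 249 to 41.8 and 41.2 CPM (log2 fold change -2.60 ± 0.14), and the partner subunit genes *ETFB* and *ETFA* fell by 1.61 and 0.49, the last of these not past the threshold without ZT0 replicate 2 or ZT2 replicate 1 (-0.32 and -0.44), with DESeq2 (-0.51) or with at least 10 counts in every library (-0.36). The exception was *BCKDH-E1A2*, a second copy of the keto acid dehydrogenase subunit, at 3.52 and 2.27 CPM at ZT0 and 4.31 and 4.79 CPM at ZT2 (adjusted p = 0.168).

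Autophagy genes fell in 14 of 17 cases and rose in none, with a median log2 fold change of -0.88, nearer to 0 than that of the 2 preceding lists. *ATG8E* and *ATG8F*, of the ubiquitin-like ATG8 family that coats autophagosome membranes, fell from 214 and 245 to 16.6 and 18.1 CPM (log2 fold change -3.71 ± 0.14 (SE), adjusted p = 8.39e-13) and from 351 and 357 to 53.1 and 55.9 CPM. *ATG5*, needed to attach ATG8 to the membrane, fell from 64.7 and 61.3 to 14.8 and 12.4 CPM (log2 fold change -2.23 ± 0.14). The other ATG8 genes changed by -0.37 to -1.68, with *ATG8G* not past the threshold (adjusted p = 0.133) except without ZT0 replicate 2 (-0.54), and the cargo receptor gene *NBR1* fell from 275 and 280.2 to 199.7 and 169 CPM (log2 fold change -0.59). *ATG7* (log2 fold change -0.26, adjusted p = 0.239) and *ATG18H* (-0.44, adjusted p = 0.167) did not pass the threshold.

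The energy sensing genes moved in both directions, with 10 of 17 lower and 5 higher. The SnRK1 catalytic subunit genes *KIN10* and *KIN11* fell from 83.1 and 93.9 to 36.7 and 41.0 CPM and from 147 and 167 to 34.6 and 36.3 CPM (log2 fold changes -1.17 ± 0.14 and -2.14 ± 0.16). Among its other subunits, *AKINBETA2* rose from 41.3 and 41.3 to 80.1 and 75.0 CPM (log2 fold change 0.91 ± 0.11), opposite to *AKINBETA1*, and *SNF4* rose less (0.47 ± 0.15). *BZIP63*, a transcription factor known as a SnRK1 target, fell from 160.2 and 158 to 4.94 and 6.49 CPM (log2 fold change -4.77 ± 0.18). *TOR* was lower (log2 fold change -0.51 ± 0.19), but missed the threshold without ZT0 replicate 1, ZT2 replicate 1 or ZT2 replicate 2 (-0.40, -0.55 and -0.48) and with at least 10 counts in every library (-0.38), and *SNF4* missed it without ZT0 replicate 2 or ZT2 replicate 2 (0.26 and 0.46).

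The trehalose phosphate synthase family split by member. *TPS1*, the synthase with known activity, rose from 16.8 and 23.9 to 63.1 and 70.5 CPM (log2 fold change 1.79 ± 0.15), and *TPS5* rose from 5.29 and 4.54 to 56.9 and 61.8 CPM (3.55 ± 0.16). *TPS8* to *TPS11* fell by 3.98 to 5.70 on the log2 scale, *TPS6* fell by 2.16, and *TPS7* did not pass the threshold (adjusted p = 0.0711), but did, at 0.25 to 0.38, with at least 10 counts in every library, with only the groups compared and with WT libraries in the fit. *HXK1*, the hexokinase that also senses glucose, rose from 54.5 and 55.7 to 83.2 and 78.8 CPM (log2 fold change 0.56 ± 0.11). *BZIP1* and *BZIP44* were listed at 0 in all libraries, and *BZIP2*, *BZIP11* and *BZIP53* were not analysed here.

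**Figure D2:**
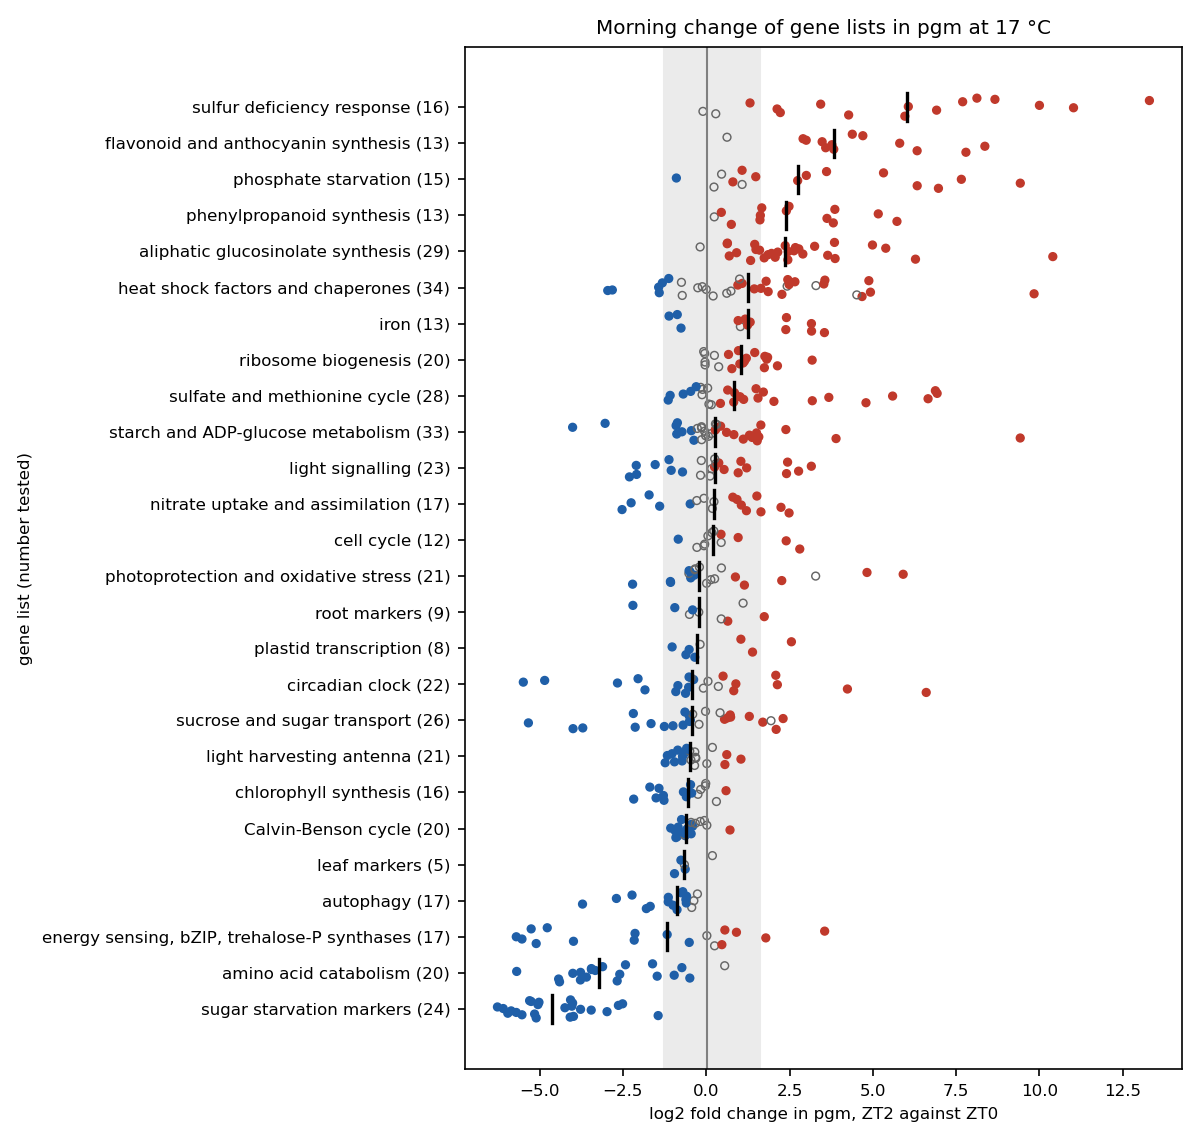
Log2 fold change of ZT2 over ZT0 in *pgm* for each tested gene of each list. Points are genes, red where higher, blue where lower and open where not past the threshold, with genes at 0 in a group at their fitted value, which is no bound, black bars are list medians, and the grey band spans the 10th to the 90th percentile of all tested nuclear genes (-1.26 to 1.62). The medians of the sugar starvation (-4.63) and amino acid catabolism (-3.22) lists lie below the band, and those of the flavonoid (3.83) and sulfur deficiency (6.01) lists above it.

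Starch genes, in a plant that makes almost no leaf starch, were higher in 15 of 33 cases and lower in 8, with 10 not past the threshold and a median log2 fold change of 0.27. *GBSS1*, the granule-bound starch synthase that makes amylose, stood at 59.6 and 62.8 CPM at ZT0 and 999.5 and 818 CPM at ZT2 (log2 fold change 3.90 ± 0.15 (SE), adjusted p = 1.71e-12). The large subunit gene *APL3* of ADP-glucose pyrophosphorylase rose from 3.52 and 2.27 to 16.6 and 16.3 CPM (log2 fold change 2.39 ± 0.252). The main leaf subunit genes *APL1* and *APS1* did not pass the threshold (adjusted p = 0.354 and 0.0704), but *APS1* passed it, at 0.32 to 0.44, under 5 alternatives (no filter, a fit of only the groups compared, WT libraries in the fit, nuclear genes only and at least 10 counts in every library). Of the breakdown genes, *BAM4*, a noncatalytic beta-amylase, fell from 148 and 143 to 17.4 and 18.1 CPM (log2 fold change -3.03 ± 0.12), *BAM1* and the phosphoglucan water dikinase *PWD* fell by 0.89 and 0.90, and the cytosolic glucan phosphorylase *PHS2*, the alpha-amylase *AMY3* and the cytosolic glucanotransferase *DPE2* rose by 1.51, 1.38 and 1.3. The count of starch genes that were lower was 5 without ZT0 replicate 1.

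Sugar transport and cleavage genes fell more often than they rose, in 13 of 26 against 8. *STP1*, a plasma membrane hexose carrier, stood at 1071 and 1163 CPM at ZT0 and 69.0 and 70.8 CPM at ZT2 (log2 fold change -4.0 ± 0.26 (SE), adjusted p = 9.58e-10), and *STP14*, a galactose carrier, fell from 107 and 103 to 2.39 and 2.73 CPM (log2 fold change -5.34 ± 0.18). The vacuolar invertase gene *VINV2* fell from 1228 and 1308 to 104 and 90.8 CPM (log2 fold change -3.71 ± 0.17), and *SUC2*, which loads sucrose into the phloem, fell from 49.8 and 49.2 to 19.0 and 22.2 CPM (-1.26 ± 0.15). Of the genes of sucrose synthesis, the sucrose phosphate synthase genes *SPSA1*, *SPSA2*, *SPSB* and *SPSC* were higher by 0.72, 1.29, 2.1 and 2.31 on the log2 scale and *UGP1*, a UDP-glucose pyrophosphorylase, by 1.70. The cytosolic fructose bisphosphatase *CFBP*, fell (log2 fold change -1.0 ± 0.12), as did *UGP2* (-0.51).

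Nitrate genes were mixed, with 8 of 17 higher and 5 lower. *NIA2*, the main nitrate reductase gene, fell from 3120.1 and 2976 to 546 and 512 CPM (log2 fold change -2.53 ± 0.16), and *NIA1* did not pass the threshold (adjusted p = 0.212), but did without ZT0 replicate 1 (0.40) and with at least 10 counts in every library (0.31). *NIR1*, the nitrite reductase, stood at 68.1 and 57.5 CPM at ZT0 and 291 and 311 CPM at ZT2 (log2 fold change 2.24 ± 0.13 (SE), adjusted p = 1.32e-10), and *NRT1.1*, the nitrate transporter and sensor, rose from 17.6 and 19.3 to 107 and 98.0 CPM (log2 fold change 2.49 ± 0.15). The asparagine synthetase genes moved apart, since *ASN2* rose from 126 and 114 to 325 and 365 CPM (log2 fold change 1.52 ± 0.12) and *ASN1* fell. *LBD37*, *LBD38* and *LBD39*, repressors of nitrate and anthocyanin genes, fell by 1.71, 1.4 and 2.25.

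Photoreceptor and light signalling genes were higher in 10 of 23 cases and lower in 7. *PHYA* and *CRY2*, whose proteins are destroyed in the light, fell from 664 and 578 to 155 and 137 CPM and from 121 and 128 to 23.0 and 27.002 CPM (log2 fold changes -2.09 ± 0.15 and -2.30 ± 0.13), and *PHYB* rose from 72.6 and 65.5 to 139 and 131 CPM. *GLK1*, a transcription factor of chloroplast genes, stood at 27.7 and 32.2 CPM at ZT0 and 201 and 202 CPM at ZT2 (log2 fold change 2.77 ± 0.12 (SE), adjusted p = 4.83e-12), while its relative *GLK2* did not pass the threshold (adjusted p = 0.267). *BBX32*, *RUP2* (which resets the UV-B receptor) and *BBX22* rose by 3.15, 2.44 and 2.41, and *PIF5*, a growth-promoting factor, fell from 310.2 and 373 to 72.7 and 85.7 CPM (log2 fold change -2.10 ± 0.13).

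Clock genes had 7 of 22 higher and 11 lower. *GI*, a clock-associated gene that also acts in flowering time, rose from 0.801 and 2.65 to 139 and 129 CPM (log2 fold change 6.60 ± 0.26). *PRR9*, a repressor of the morning genes, stood at 7.37 and 5.30 CPM at ZT0 and 131 and 122 CPM at ZT2 (log2 fold change 4.24 ± 0.16 (SE), adjusted p = 1.28e-12), *PRR7* rose by 0.89, and *LNK1* by 2.09. *RVE1* and *RVE2*, MYB factors of the dawn phase, fell from 871 and 873 to 21.4 and 17.7 CPM and from 206 and 198 to 7.50 and 6.61 CPM (log2 fold changes -5.49 ± 0.15 and -4.85 ± 0.18), *LHY* fell by 0.62, and *CCA1* did not pass the threshold (adjusted p = 0.549). *GRP8* and *GRP7*, RNA-binding proteins of a loop driven by the clock, rose by 2.13 and 0.83.

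The promoter of *GRP7* is shown because it holds the evening element AAAATATCT, the site that CCA1 and its relatives are known to bind, 3 times within 76 bases of the start. The element, on either strand, was in 6 of 22 clock promoters (27.3%) and in 2.45% of all 19465, and CACGTG, the G-box, was in 36.4% and 7.39%. Across the other lists the share of the evening element ran from 0% (nitrate) to 25% (plastid transcription), and that of the G-box from 0% (autophagy) to 46.2% (iron). The window is chr2:9266558-9266807, minus strand (TAIR10.1, RefSeq), with the elements in capitals, as their reverse complement in the first pair and as spelled in the last.
GRP7: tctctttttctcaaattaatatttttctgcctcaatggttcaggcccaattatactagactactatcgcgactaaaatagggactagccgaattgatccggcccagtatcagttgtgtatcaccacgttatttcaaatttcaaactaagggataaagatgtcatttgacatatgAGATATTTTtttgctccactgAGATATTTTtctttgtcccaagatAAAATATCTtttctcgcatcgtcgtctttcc

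Heat shock factor and chaperone genes had 16 of 34 higher and 6 lower, with a median log2 fold change of 1.26. The median was 1.08 without the 5 genes at 3 counts or fewer in each group and with other genes at 0 in a group put at their bound. *HSP70* (AT3G12580, chromosome 3, 3991261 to 3993792), the cytosolic chaperone gene followed throughout the study, stood at 2.403 and 3.41 CPM at ZT0 and 81.6 and 84.5 CPM at ZT2 (log2 fold change 4.93 ± 0.18 (SE), adjusted p = 7.78e-13). *HSP101*, needed for survival of heat, rose from 4.81 and 6.06 to 23.9 and 26.3 CPM (log2 fold change 2.27 ± 0.18), and *HSP90.1* rose from 2.08 and 2.65 to 24.2 and 29.1 CPM (3.56 ± 0.30). The heat shock factor *HSFA2* was at 0 in both ZT0 libraries and at 11.5 and 15.8 CPM at ZT2. In these genes both ZT2 libraries lay above both ZT0 libraries.

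The small heat shock protein genes were at 1.76 CPM or less at ZT0, and 2 of them stood well above that at ZT2. *HSP17.4*, *HSP21*, *ATHSP22.0*, *HSP23.6-MITO* and *AT1G52560* had 3 counts or fewer in each group. *HSP17.6II*, a cytosolic class II protein, was at 1.28 and 1.37 CPM at ZT2, 5.90-fold (95% counting interval 1.43 to 52.1) above ZT0, and missed the threshold without ZT0 replicate 1 or 2 or ZT2 replicate 2 and with WT libraries in the fit. *AT5G51440*, a mitochondrial small heat shock protein, rose from 0.320 and 0.379 to 11.6 and 9.34 CPM, or 30.5-fold (95% counting interval 10.2 to 149.5), and *AT1G07400*, a cytosolic one, rose from 0.481 and 0 to 6.38 and 11.1 CPM, or 26.96-fold (95% counting interval 9.03 to 132). The master factor genes *HSFA1B* and *HSFA1E* and the factor gene *HSFA7A* fell by 1.32, 1.41 and 2.96 on the log2 scale. *HSA32*, which prolongs acquired thermotolerance, also fell (-1.43 ± 0.251). Among 15 genes of the list with at least 10 counts in every library, 7 were higher, and the median was 0.33.

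The *HSFA2* promoter is shown because it holds 2 copies of GAANNTTC, the core of the heat shock element. The motif was in 8 of 34 promoters of the list (23.5%) and in 9.23% of all 19465. Across the other lists its share ran from 0% (autophagy) to 40% (phosphate starvation). The window is chr2:11135374-11135623, plus strand (TAIR10.1, RefSeq), with the motif in capitals 88 to 81 and 33 to 26 bases before the start.
HSFA2: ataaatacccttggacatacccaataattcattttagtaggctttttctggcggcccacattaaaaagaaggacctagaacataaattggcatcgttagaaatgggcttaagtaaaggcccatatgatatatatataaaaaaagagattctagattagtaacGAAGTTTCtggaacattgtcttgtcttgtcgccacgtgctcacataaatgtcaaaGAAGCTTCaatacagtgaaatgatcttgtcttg

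Among nuclear photosynthesis genes more were lower than higher. Of the 20 Calvin-Benson cycle genes 13 were lower and 1, the ribose 5-phosphate isomerase gene *RPI3*, was higher (median log2 fold change -0.60), and of 21 antenna genes 10 were lower and 3 higher, with a median of -0.49. The glyceraldehyde phosphate dehydrogenase gene *GAPA1* fell from 4159 and 5492 to 2576 and 2033 CPM (log2 fold change -1.07 ± 0.19 (SE), adjusted p = 1.35e-04), and *RBCS1A*, the small subunit of Rubisco, stood at 6885 and 12596 CPM at ZT0 and 7668 and 4701 CPM at ZT2 (adjusted p = 0.0585), passing the threshold without ZT0 replicate 1 (-1.03) or ZT2 replicate 1 (-1.06), with no filter (-0.61) and with WT libraries in the fit (-0.63). The counts moved with single libraries and with the filter. With at least 10 counts in every library 6 antenna genes were lower, and 7 with DESeq2. Without ZT0 replicate 2 or without ZT2 replicate 2, 5 antenna genes were lower, without ZT0 replicate 1, 1 was higher, and without ZT2 replicate 2, 8 Calvin-Benson cycle genes were lower. The antenna genes share reads among near-identical copies, so the split between, for example, *LHCB1.1*, *LHCB1.2* and *LHCB1.3* is uncertain.

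Chlorophyll synthesis genes were lower in 10 of 16 cases, with *HEMA2*, of the first committed step, at a log2 fold change of -2.18, *PORB*, the light-dependent reductase, at -1.69 and *CAO*, which makes chlorophyll b, at -1.51. *GUN4*, a cofactor of magnesium chelatase, was the 1 gene that rose (0.59 ± 0.12), against 2 genes with no filter, with at least 10 counts in every library or with only the groups compared. Of 21 photoprotection and oxidative stress genes, 5 were higher and 7 lower, and the lower count was 4 without ZT0 replicate 2 or with at least 10 counts in every library (18 tested) and 3 without ZT2 replicate 2. The early light-induced protein genes *ELIP1* and *ELIP2* stood out, with *ELIP1* at 4.97 and 6.06 CPM at ZT0 and 351 and 291 CPM at ZT2 (log2 fold change 5.91 ± 0.23 (SE), adjusted p = 1.21e-12) and *ELIP2* rising from 12.7 and 14.01 to 400.1 and 345 CPM. *APX1*, a cytosolic ascorbate peroxidase, rose by 1.15, *CAT3*, a catalase, fell by 1.07, and *VDE*, the violaxanthin de-epoxidase of heat dissipation, fell from 139.8 and 141 to 29.3 and 31.2 CPM (log2 fold change -2.21 ± 0.12).

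Flavonoid and phenylpropanoid genes rose together. Of the 13 flavonoid genes 12 were higher and none was lower (median log2 fold change 3.83, or 3.77 with the 2 genes at 0 put at their bound), and of 13 genes of the phenylpropanoid pathway that feeds it 12 were higher and none lower, with a median of 2.4. *CHS*, chalcone synthase, the entry to flavonoids, stood at 60.4 and 49.6 CPM at ZT0 and 449.7 and 387 CPM at ZT2 (log2 fold change 2.91 ± 0.16 (SE), adjusted p = 1.39e-10). *PAL1* and *4CL1*, which act early in the route from phenylalanine, rose from 70.8 and 55.7 to 866 and 716 CPM and from 32.4 and 36.7 to 516 and 444 CPM. The MYB factor *PAP1*, which turns on anthocyanin genes, rose from 0.160 and 0 to 28.1 and 28.5 CPM, a ratio of 252-fold (95% counting interval 44.9 to 9958), and *MYB12*, which turns on flavonol genes, rose from 2.72 and 3.41 to 39.5 and 44.0 CPM (log2 fold change 3.83 ± 0.24). The anthocyanin gene *DFR* did not pass the threshold (log2 fold change 0.62, adjusted p = 0.0927), but did with no filter on low counts (0.66) and with only the groups compared (0.63). *FLS1*, of flavonols, rose by 3.0.

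**Figure D3:**
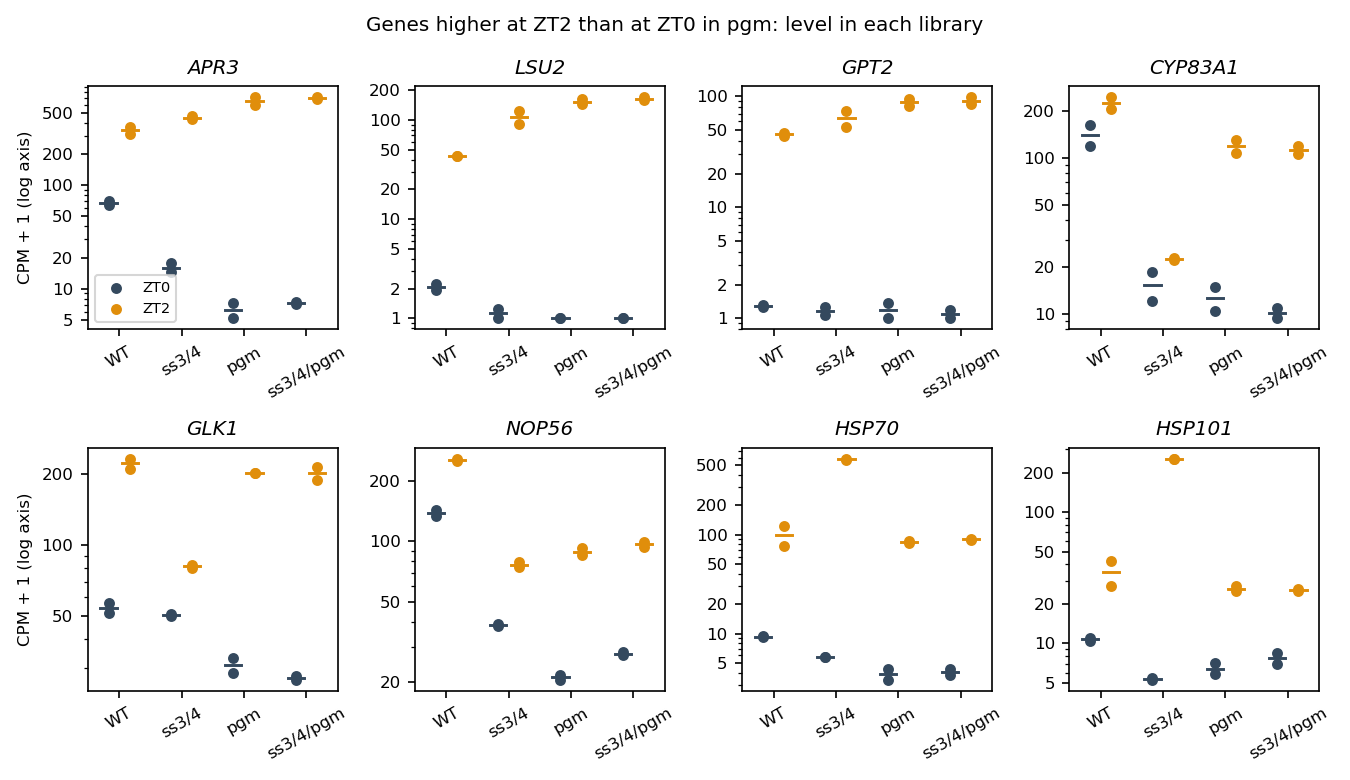
Levels of 8 genes as CPM + 1 on a log axis, for *pgm*, *ss3/4/pgm*, *ss3/4* and WT at ZT0 (dark) and ZT2 (orange). Points are libraries (2 per group) and bars are means. In *pgm* both ZT2 points lie above both ZT0 points in every panel, and *HSP101* at ZT2 is at 23.9 and 26.3 CPM in *pgm* and at 251 and 255 CPM in *ss3/4*.

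Sulfur metabolism held some of the strongest rises. These lists, like those of phosphate, phenylpropanoids and glucosinolates, were drawn up after the changes had been seen and are a description only. Of 28 genes of sulfate assimilation and the methionine cycle, 17 were higher and 5 lower. The reductases of the control step, *APR1*, *APR2* and *APR3*, stood out, with *APR3* (AT4G21990, chromosome 4, 11657008 to 11659167) at 6.25 and 4.16 CPM at ZT0 and 598 and 712 CPM at ZT2 (log2 fold change 6.88 ± 0.20 (SE), adjusted p = 9.81e-14) and *APR1* and *APR2* higher by 6.93 and 4.79. In the methionine cycle, *MS2* (methionine synthase) rose from 11.2 and 10.98 to 1225 and 1025 CPM, *SAHH2* (which clears S-adenosylhomocysteine) rose from 15.5 and 15.5 to 777 and 724 CPM and *MTO3* (S-adenosylmethionine synthetase) rose from 77.7 and 81.0 to 997 and 1032 CPM, while the abundant copies *ATMS1* and *SAHH1* rose by 1.5 and 0.85. *OASB*, of cysteine synthesis in the plastid, fell by 1.14.

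Sulfur deficiency genes were higher in 14 of 16 cases and lower in none, with a median log2 fold change of 6.01, or 3.85 with the 5 genes at 0 put at their bound. *SDI1* (annotated *ATSDI1*), which restrains glucosinolate synthesis under low sulfur, rose from 0 and 0.379 to 27.3 and 43.2 CPM, a ratio of 325-fold (95% counting interval 58.0 to 12849.5), and *LSU1* rose from 0.160 and 0.757 to 22.6 and 24.6 CPM. *EIL3* (*SLIM1*), the factor known to drive this response, did not pass the threshold (log2 fold change 0.29, adjusted p = 0.178). *APK1* and *APK2*, which make the sulfate donor for glucosinolates, rose from 15.1 and 18.2 to 75.7 and 75.3 CPM and from 5.61 and 4.54 to 62.4 and 52.2 CPM.

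Aliphatic glucosinolates are the methionine-derived defence compounds of the family, and 28 of the 29 tested genes of their synthesis were higher and none was lower, with a median log2 fold change of 2.37. The MYB factors *MYB28* and *MYB29*, which turn the pathway on, rose from 10.6 and 7.19 to 143 and 129.5 CPM and from 0.801 and 0.757 to 26.95 and 24.2 CPM. Chain elongation (*BCAT4*, *MAM1*, *IPMI1*) rose by 1.6, 0.63 and 2.78, with *MAM1* not past the threshold without ZT0 replicate 2 or ZT2 replicate 1 (0.44 and 0.46). *CYP83A1*, of the core structure, stood at 13.9 and 9.46 CPM at ZT0 and 129.6 and 107 CPM at ZT2 (log2 fold change 3.25 ± 0.20 (SE), adjusted p = 3.96e-10), and the sulfotransferase *SOT17* rose from 0.961 and 2.27 to 20.09 and 20.2 CPM (log2 fold change 3.87 ± 0.31). *IIL1*, an isopropylmalate isomerase subunit shared with leucine synthesis, did not pass the threshold (adjusted p = 0.198).

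Phosphate starvation genes rose in 11 of 15 cases, with a median log2 fold change of 2.74 (2.46 with genes at 0 put at their bound), and *PHR1*, the factor that drives them, fell (log2 fold change -0.90 ± 0.11). *SPX1*, a phosphate sensor, stood at 7.05 and 8.71 CPM at ZT0 and 319 and 289.8 CPM at ZT2 (log2 fold change 5.32 ± 0.19 (SE), adjusted p = 7.18e-13), and the acid phosphatase *PAP17* and the lipid remodelling gene *SQD2* rose from 0.961 and 0.757 to 204 and 166 CPM and from 23.2 and 21.96 to 193 and 173 CPM. Iron genes were higher in 9 of 13 cases and lower in 3. *PYE*, a bHLH factor of iron deficiency, stood at 16.98 and 14.01 CPM at ZT0 and 161 and 124 CPM at ZT2 (log2 fold change 3.16 ± 0.15 (SE), adjusted p = 1.77e-11), and the *IMA1* and *IMA2* peptide genes rose by 3.16 and 3.55. *FER1*, the iron store ferritin, fell from 240.1 and 189 to 92.5 and 107 CPM (log2 fold change -1.12 ± 0.20). The count of iron genes that were lower was 1 without ZT0 replicate 1.

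Ribosome biogenesis genes were higher in 14 of 20 cases and lower in none, with a median log2 fold change of 1.06. *NOP56*, a core protein of the box C/D particles that methylate ribosomal RNA, stood at 19.5 and 20.8 CPM at ZT0 and 84.2 and 91.7 CPM at ZT2 (log2 fold change 2.14 ± 0.12 (SE), adjusted p = 1.37e-10). *NUC1*, nucleolin, and *NHP2*, of the pseudouridylation particles, rose from 55.4 and 58.7 to 184 and 197 CPM and from 27.9 and 26.5 to 90.7 and 94.3 CPM. *FIB1*, *GAR1*, *NOP10* and *TOZ* did not pass the threshold (log2 fold changes -0.08, -0.04, -0.03 and -0.05). Of the 12 cell cycle genes 4 were higher (2 without ZT0 replicate 2, without ZT2 replicate 1 or with DESeq2) and 1 was lower. The S-phase genes *PCNA1*, the DNA polymerase clamp, and *TSO2*, of ribonucleotide reductase, rose from 3.04 and 2.27 to 19.0 and 20.3 CPM and from 15.4 and 18.6 to 90.3 and 84.3 CPM, whereas the mitotic cyclin genes *CYCB1;1*, *CYCB1;2* and *CYCB1;4* did not pass the threshold, except *CYCB1;4* without ZT0 replicate 1 (1.24).

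The *NOP56* promoter is shown because it holds the site II element GGCCCA 3 times. The element, on either strand, was in 15 of the 20 promoters of the list (75%) and in 16.6% of all 19465, and AAACCCTA, the telo box, was in 20% and 3.56%. Across the other lists the share of site II ran from 0% (iron) to 62.5% (plastid transcription). That of the telo box ran from 0% (autophagy) to 12.5% (sugar starvation). The window is chr1:20986953-20987202, minus strand (TAIR10.1, RefSeq), with the elements in capitals, the last one as spelled and the other 2 as the reverse complement.
NOP56: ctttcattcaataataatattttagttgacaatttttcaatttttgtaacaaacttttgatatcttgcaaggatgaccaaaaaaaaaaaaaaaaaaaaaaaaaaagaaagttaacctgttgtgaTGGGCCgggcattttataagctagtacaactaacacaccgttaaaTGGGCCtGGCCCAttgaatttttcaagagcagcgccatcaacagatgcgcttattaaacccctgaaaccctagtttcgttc

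Plastid-encoded genes, counted in the same libraries and fitted with the nuclear genes, are given apart. Their transcripts are mostly not polyadenylated, so in poly(A) libraries their counts depend on the library kit. The values below are shares of counts, and how far they follow transcript levels in the plastid was not tested. Of 130 plastid genes tested, 129 (99.2%) were higher at ZT2 and 0 were lower by edgeR (0 at an unadjusted p under 0.05 and 0 with DESeq2), with a median log2 fold change of 4.64, or 4.62 with 7 genes at 0 put at their bound. Their share of all counts was 0.593% and 2.71% in the ZT0 libraries and 10.8% and 7.46% in the ZT2 libraries, most of it from ribosomal RNA (0.530% and 2.53% against 8.52% and 5.54%). Without the ribosomal RNA genes the share was 0.0634% and 0.182% at ZT0 and 2.23% and 1.92% at ZT2. The groups did not overlap, although the ZT0 libraries differed from each other.

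**Figure D4:**
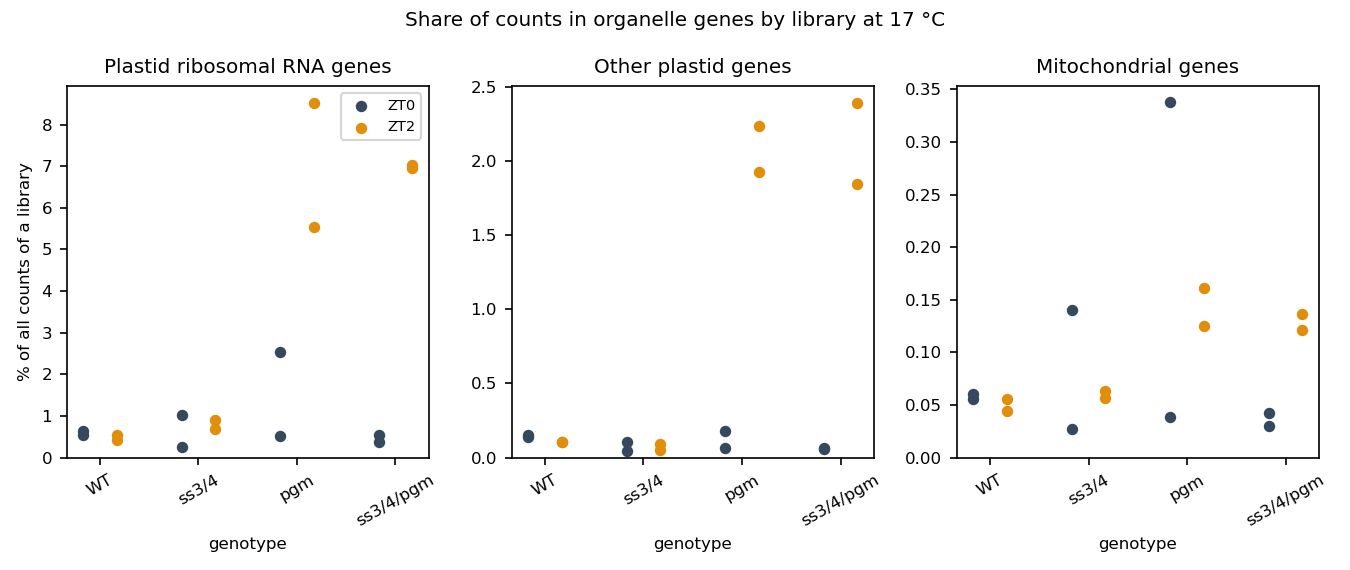
Share of each library's counts, in percent, in plastid ribosomal RNA, other plastid genes and mitochondrial genes, for *pgm*, *ss3/4/pgm*, *ss3/4* and WT at ZT0 and ZT2. Points are libraries (2 per group). In *pgm* the plastid ribosomal RNA share is 8.52% and 5.54% and the share of other plastid genes 2.23% and 1.92% at ZT2, above both ZT0 libraries.

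The rise was seen in every functional group of plastid genes. *psbA*, the D1 protein of photosystem II, stood at 107 and 316 CPM at ZT0 and 2993 and 2120.4 CPM at ZT2 (log2 fold change 3.62 ± 0.4 (SE), adjusted p = 6.93e-07), and *rbcL*, the large subunit of Rubisco, at 108 and 362 CPM at ZT0 and 2967 and 2105 CPM at ZT2 (log2 fold change 3.46 ± 0.46 (SE), adjusted p = 6.31e-06). All 20 photosystem genes, 6 cytochrome b6f genes, 6 ATP synthase genes and 9 *ndh* genes were higher, with medians of 4.55, 4.64, 3.74 and 5.53. So were the 24 ribosomal protein genes and the 4 subunits of the plastid-encoded RNA polymerase (medians 3.84 and 3.61). *rpoB*, a polymerase subunit, rose from 43.4 and 48.1 to 189 and 159.7 CPM and *rpoA* rose from 2.56 and 5.30 to 111 and 89.4 CPM. *ndhF* rose from 3.52 and 6.06 to 316 and 253 CPM, and *clpP*, a protease subunit gene, rose from 9.45 and 9.09 to 79.7 and 58.0 CPM.

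The ribosomal RNA genes had the lowest median of these groups, 1.88, with *rrn16S* at 959 and 4758 CPM at ZT0 and 13245 and 7704 CPM at ZT2 (log2 fold change 1.88 ± 0.57 (SE), adjusted p = 0.00976) and *rrn23S* close to it. Among transfer RNA genes 31 of 32 named copies were higher, with a median of 5.63, and the 2 copies of *trnR* at 0 at ZT0 were at least 42.7-fold and at least 41.9-fold higher. Their short length and, for copies in the inverted repeat, the shared reads make single transfer RNA values uncertain. The 1 plastid gene not past the threshold was *trnfM* (adjusted p = 0.081). Without ZT0 replicate 2, 128 plastid genes were higher, and without ZT0 replicate 1, 121.

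The nuclear genes that drive plastid transcription moved in both directions. *RPOTMP* and *RPOTP*, phage-type RNA polymerases, rose from 1.92 and 1.89 to 10.8 and 11.7 CPM and from 8.33 and 5.68 to 20.09 and 19.0 CPM (log2 fold changes 2.56 ± 0.29 and 1.39 ± 0.22), *SIG5*, a light-responsive sigma factor, rose by 1.04, and *SIG1*, *SIG2*, *SIG3* and *SIG6* fell by 0.61, 0.34, 1.02 and 0.51. Of the 8 genes 4 were lower, and 2 without ZT0 replicate 1, where *SIG2* and *SIG6* stood at -0.23 and -0.40 and missed the threshold. *SIG2* missed it without ZT2 replicate 2 (-0.27) and with at least 10 counts in every library (-0.22) as well. The labels name 2 library kits (the study's methods only the stranded one) and 2 sequencing centres without saying which library was made with which, so kit, centre and time point cannot be told apart in the plastid values. Nuclear ribosomal RNA, at 0.753% and 2.03% of counts at ZT0 and 1.81% and 1.1% at ZT2, did not separate the *pgm* groups. The highest of these values was that of ZT0 replicate 2. In *ss3/4/pgm* the share was higher at ZT2, at 0.705% and 0.626% at ZT0 and 1.299% and 1.387% at ZT2. In *ss3/4* the times overlapped, and in WT both ZT2 libraries lay below both ZT0 libraries. Whether these shares and the plastid values have a common cause was not tested.

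Mitochondrial genes, named here by locus, had few calls in *pgm*, and the calls moved with single libraries. Of 34 tested, 3 (8.82%) were higher, 2 with DESeq2, and 0 were lower by edgeR (0 at an unadjusted p under 0.05, and with DESeq2 0 after adjustment and 2 before it). *ATMG00370* was at 0 in both ZT0 libraries and at 26.5 and 20.2 CPM at ZT2, at least 67.5-fold higher. *ATMG00280* rose from 0.320 and 1.51 to 3.19 and 3.42 CPM (log2 fold change 2.23 ± 0.62), and missed the threshold without ZT0 replicate 1 (1.12). For *ATMG01080* the groups overlapped, at 0.160 and 2.27 CPM at ZT0 and 3.67 and 2.16 CPM at ZT2, and the call was lost with DESeq2 and without ZT0 replicate 1 or ZT2 replicate 1 (1.6, 0.32 and 1.35). The locus with the most mitochondrial counts, *ATMG00020*, stood at 249 and 2305 CPM at ZT0 and 1002 and 639 CPM at ZT2 (log2 fold change -0.63 ± 0.67, adjusted p = 0.44). Its highest value was in ZT0 replicate 2, and the log2 fold change was 1.71 without that library and -1.49, past the threshold, without ZT0 replicate 1. The mitochondrial calls moved with the same library, with 7 genes higher and 0 lower without ZT0 replicate 2 and 1 higher and 20 lower without ZT0 replicate 1. The shares of mitochondrial counts in *pgm* were 0.0384% and 0.338% at ZT0 and 0.161% and 0.125% at ZT2. In *ss3/4/pgm* they were 0.0424% and 0.0302% at ZT0 and 0.137% and 0.122% at ZT2. The median log2 fold change of the mitochondrial genes was -0.70 in *pgm* and 1.59 in *ss3/4/pgm*, against 4.64 and 5.44 for the plastid genes. In *ss3/4/pgm* both medians were thus positive, and in *pgm* the mitochondrial calls moved with single libraries. Whether the rise was particular to plastid genes was not tested.

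In *ss3/4/pgm*, the other genotype without the phosphoglucomutase, 1 nuclear gene had a morning change that differed past the threshold from that in *pgm*. By edgeR 0 of 19481 nuclear genes (0%) had a higher change in *pgm*, with 294 at an unadjusted p under 0.05 (DESeq2 gave 0 after adjustment and 89 before it), and 1 (0.00513%) had a lower one, with 201 at an unadjusted p under 0.05. That gene was *SHL1*, a chromatin reader, at 128 and 141 CPM at ZT0 and 62.7 and 61.2 CPM at ZT2 in *pgm*, and at 73.3 and 64.5 CPM and then 80.2 and 74.4 CPM in *ss3/4/pgm* (difference -1.29 ± 0.15 (SE), adjusted p = 0.00280). It missed the threshold without *ss3/4/pgm* ZT0 replicate 2 (-1.19) or ZT2 replicate 1 (-1.23). The list medians of *pgm* and *ss3/4/pgm* were -4.63 and -4.39 for sugar starvation, 2.37 and 2.61 for glucosinolates and 4.64 and 5.44 for the plastid genes. Plastid genes made up 0.604% and 0.446% of counts at ZT0 and 9.34% and 8.87% at ZT2 in *ss3/4/pgm*. With 2 libraries a group, a p that misses the threshold does not show that both genotypes changed alike.

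Against *ss3/4*, in which *PGM1* is intact, the change in *pgm* was higher in 547 nuclear genes (2.81%) and lower in 901 (4.63%). These counts were 178 and 412 without *pgm* ZT0 replicate 1, 271 and 506 without ZT0 replicate 2, 291 and 500 without ZT2 replicate 1, and 266 and 481 without ZT2 replicate 2. The sugar starvation markers fell in *ss3/4* too, by a median of -3.37, and 16 of 24 fell further in *pgm*. For *TPS8* the log2 fold changes were -5.53 in *pgm* and -3.51 in *ss3/4* (difference -2.02 ± 0.20 (SE), adjusted p = 1.43e-05), and for *PRODH1* -5.69 and -4.07 (difference -1.62 ± 0.24 (SE), adjusted p = 4.85e-04), but for *ASN1* the difference did not pass the threshold (adjusted p = 0.131). The change in *pgm* was the higher one in 10 of 20 ribosome biogenesis genes and in 15 of 29 glucosinolate genes. *GLK1* rose by 2.77 in *pgm* and 0.70 in *ss3/4* (difference 2.07 ± 0.16 (SE), adjusted p = 1.501e-06), and *CYP83A1* by 3.25 and 0.55 (difference 2.70 ± 0.28 (SE), adjusted p = 2.22e-05).

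Heat genes separated the genotypes the other way. None had a higher change in *pgm*, and 15 of 34 had a lower one than in *ss3/4*, where the fitted list median was 4.46 against 1.26. *HSP101* was higher by 2.27 in *pgm* and 5.85 in *ss3/4* (difference -3.58 ± 0.28 (SE), adjusted p = 1.501e-06), from 4.43 and 4.28 CPM at ZT0 and 251 and 255 CPM at ZT2 in *ss3/4*. *HSP70* was higher by 4.93 and 6.90 (difference -1.97 ± 0.31 (SE), adjusted p = 9.17e-04). The plastid genes changed by a median of 0.20 in *ss3/4*, where their share of counts was 0.307% to 1.13%, and 97 of 130 rose more in *pgm*.

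Against WT, fitted with the 4 WT libraries added, 2785 of 19965 nuclear genes (13.9%) had a higher change in *pgm* and 3383 (16.9%) a lower one. Without *pgm* ZT0 replicate 1 the first of these counts was 1707. Of the sugar starvation markers 22 of 24 fell further in *pgm* than in WT, whose median was -2.48, and of the amino acid catabolism genes 17 of 20. For *PRODH1* the log2 fold change was -5.69 in *pgm* and -0.75 in WT (difference -4.92 ± 0.23 (SE), adjusted p = 1.92e-10), and for *DIN10* -5.02 and -2.47 (difference -2.53 ± 0.26 (SE), adjusted p = 6.87e-07). *SEN1* did not differ past the threshold (adjusted p = 0.356). On the rising side, 22 of 29 glucosinolate genes had a higher change in *pgm* and 0 a lower one. Of the sulfate and methionine cycle genes 14 of 28 had a higher change in *pgm* and 3 a lower one. *APR3* rose by 6.88 against 2.35 (difference 4.54 ± 0.24 (SE), adjusted p = 3.61e-10). Of the heat genes 7 of 34 had a higher change in *pgm* and 4 a lower one. The plastid genes changed by a median of -0.49 in WT, and 117 of 130 rose more in *pgm*.

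**Figure D5:**
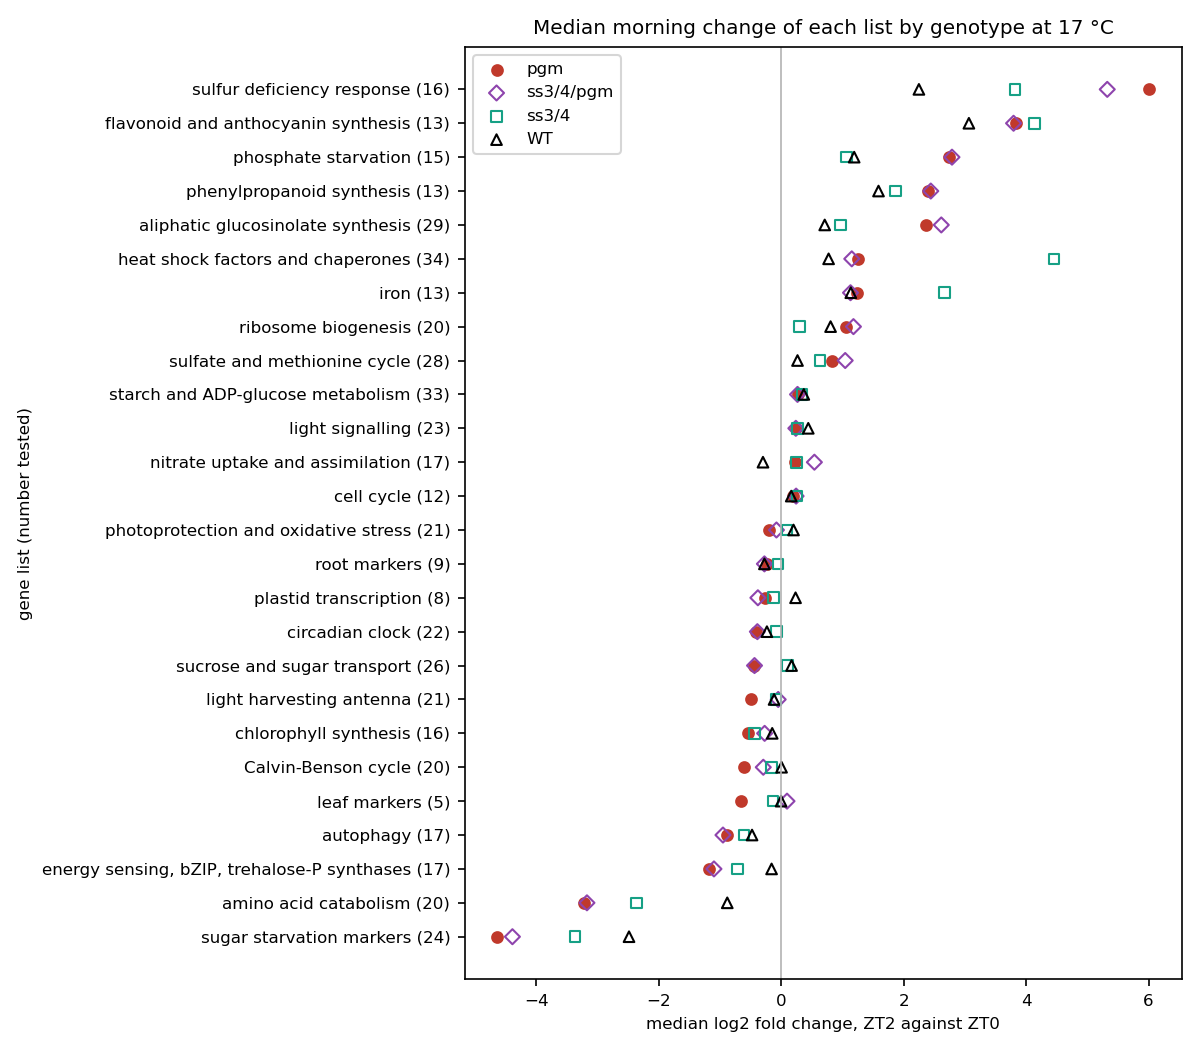
Median log2 fold change of ZT2 over ZT0 for each gene list in *pgm*, *ss3/4/pgm*, *ss3/4* and WT, from 2 libraries per genotype and time. The *pgm* and *ss3/4/pgm* points lie close in most lists, and the heat list is at 4.46 in *ss3/4* and 1.26 in *pgm*.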

How the data were processed

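Poly(A) RNA from seedlings was sequenced, on the HiSeq2000 platform as paired-end reads of 100 bp per the labels and on a NextSeq500 per the study's methods. The sources disagree, and which platform gave these libraries is not settled here. Per the labels, the authors' processing used FastQC, Trimmomatic, TopHat, Picard and the TAIR10 build, and the deposited values used here are raw counts per gene, 1 table per library. The counting tool, its use of strand and its treatment of reads with several matches are not given in the sources used here, so genes with near-identical copies and overlapping antisense genes are uncertain. Tables in TPM and samples at other temperatures or times were not used here.

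Counts of 33557 genes were fitted with edgeR 4.0.16 (R 4.3.3, limma 3.58.1) over the 12 mutant libraries (*pgm*, *ss3/4*, *ss3/4/pgm*; ZT0 and ZT2; 2 each), with TMM scaling, filterByExpr by group (19645 genes tested) and the quasi-likelihood test. Differences from *ss3/4* and *ss3/4/pgm* were interaction terms of this fit, and those from WT came from a fit of 16 libraries (20130 genes). Adjusted p-values are Benjamini-Hochberg over all genes of a fit, with a threshold of 0.05. Scripts were tested on simulated data. The fits were repeated with DESeq2 1.42.0 (the test, or its scaling alone), no filter, at least 10 counts in every library, other libraries in the fit, nuclear genes only, a replicate block and each replicate left out.

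Lists and members were chosen with earlier results of these data known, and 5 of the 27 lists (sulfate and methionine, sulfur deficiency, glucosinolate, phosphate and phenylpropanoid genes) after seeing the values. Named genes were *PGM1*, the 10 largest rises and falls that passed the threshold without overlap at 10 CPM or more in the higher group, per list up to 4 called genes in each direction by size and 4 by level, the 5 largest differences each way per genotype, and for organelles the 4 highest and the 4 most changed genes. Other genes named in the text were chosen after their values were seen. Motifs were searched on both strands of the 250 bases before the start, spelled CACGTG for the G-box, TATCCA for the sugar motif, AAAATATCT for the evening element, GAANNTTC for the heat shock element, GNATATNC for the PHR1 site, AAACCCTA for the telo box and GGCCCA for site II, and none of them contains another.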

Additional observations from a re-analysis of the deposited data

Results flagged for a closer look

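The morning change of *pgm* differed between genotypes by the interaction test of edgeR, in 547 nuclear genes above and 901 below *ss3/4*, 1 below *ss3/4/pgm*, and 2785 above and 3383 below WT. The values that follow are differences in log2 fold change (*pgm* minus the other genotype) for the genes that differed most. Where *pgm* had no count at ZT0 or at ZT2 the fitted size depends on the prior count and is no bound, which holds for *FMO GS-OX3*, *AT1G13608*, *LSU2*, *LSU3* and *AT1G15840*.

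Against *ss3/4*, the genes with the higher change in *pgm* were *AK3*, an aspartate kinase (2.89), *AT1G70985*, a hydroxyproline-rich glycoprotein gene (2.84), and the glucosinolate genes *CYP83A1* (2.70) and *SOT17* (2.65). *AT2G07739*, a nuclear gene annotated as a Ycf1 protein, stood above both *ss3/4* (5.95) and WT (7.93), at 0 and 0.757 CPM at ZT0 and 17.1 and 12.4 CPM at ZT2 in *pgm*. Ycf1 is a plastid gene, so reads may be shared with a near-identical plastid copy and its value is uncertain. The genes with the lower change were the small heat shock protein genes *AT1G52560* (-8.13), *HSP17.6II* (-7.40) and *AT5G37670* (-5.10), the prolyl isomerase gene *AT5G48570* (-5.47) and the Bax inhibitor-like gene *AT1G03070* (-5.02). *AT5G48570* stood at 1.602 and 1.14 CPM at ZT0 and 6.86 and 11.3 CPM at ZT2 in *pgm*, and at 0.966 and 0.936 CPM and then 272 and 271 CPM in *ss3/4*. Without *pgm* ZT0 replicate 1 the differences from *ss3/4* were 4.28 for *AT2G07739*, 1.85 for *AT1G70985*, 1.93 for *SOT17*, -8.29 for *AT1G52560*, -3.39 for *HSP17.6II* and -4.78 for *AT1G03070*, and none of these passed the threshold. *AT2G07739* also missed it without *pgm* ZT2 replicate 1 (5.73) or *ss3/4* ZT0 replicate 2 (4.77), and *HSP17.6II* without either *pgm* ZT2 library (-7.36 and -7.46).

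Against *ss3/4/pgm*, *SHL1* differed by -1.29. Against WT, the higher changes were those of *FMO GS-OX3* (9.38), *AT1G13608* (8.19), *LSU2* (8.13) and *LSU3* (6.89). A higher change is not a higher level. *FMO GS-OX3* stood at 0 at ZT0 and 21.2 and 19.8 CPM at ZT2 in *pgm*. In WT it stood at 17.0 and 26.3 CPM and then 55.9 and 40.5 CPM, above *pgm* at both times. *LSU2* at ZT2 was at 145 and 161 CPM in *pgm* and at 42.5 and 42.7 CPM in WT. *AT1G13608*, *LSU3* and *AT2G07739* missed the threshold without WT ZT0 replicate 2 (7.25, 6.22 and 6.84), and *AT1G13608* and *LSU3* without *pgm* ZT0 replicate 1 (8.22 and 6.92). The lower changes were those of *AT1G15840* (-7.59), the calcium uniporter-like gene *AT4G36820* (-6.75), *SIP2*, a raffinose synthase-like gene (-6.05), *AT3G62950* (-5.45, and -4.12 and not past the threshold without WT ZT2 replicate 2) and *PP2-A13* (-5.27). *SIP2* stood at 4905 and 5393 CPM at ZT0 and 71.6 and 65.7 CPM at ZT2 in *pgm*, and at 121 and 98.5 CPM and then 81.5 and 114 CPM in WT.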

How the results depend on the processing

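The nuclear counts of *pgm* kept within 1.5 times of 5689 higher and 5736 lower under every alternative run (leave-one-out 4049 to 5001 and 4635 to 5242). With at least 10 counts in every library, 45 of 45 plastid and 0 of 6 mitochondrial genes were higher, which tests fewer genes. Under that filter 7 of 15 heat, 3 of 3 flavonoid, 6 of 9 phosphate, 4 of 6 sulfur deficiency and 18 of 19 glucosinolate genes were higher. Without a filter, 11 mitochondrial genes were lower, 1064 nuclear genes were above *ss3/4*, and 14 were above and 15 below *ss3/4/pgm*. DESeq2 gave 346 above *ss3/4*. Leaving out 1 library gave 1 to 7 mitochondrial genes higher and 0 to 20 lower, 178 to 651 nuclear genes above and 412 to 827 below *ss3/4*, 0 to 1 above and 0 to 1 below *ss3/4/pgm*, and 1707 to 2418 above and 2348 to 2999 below WT. Without *pgm* ZT0 replicate 2 the log2 fold changes of *ATMG00020*, *ATMG00030* and *ATMG00060* turned to 1.71, 1.87 and 6.72, and without ZT0 replicate 1 they were -1.49, -1.68 and -2.26. For single genes, 7448 of the recomputed values kept direction and side of the threshold, 213 (81 genes) lost and 103 (47 genes) gained a call. The cause of these moves was not tested. The labels do not say that a replicate number marks a shared batch. The correlation of replicate differences across genes was -0.087 between *pgm* ZT0 and ZT2 and -0.19 to 0.32 over the 15 pairs of mutant groups, above 0.1 in 3 of them (*pgm* and *ss3/4* at ZT0, 0.23, *ss3/4* and *ss3/4/pgm* at ZT0, 0.19, and at ZT2, 0.32), so the numbers were not taken to pair the samples. With a replicate block, 5703 nuclear genes were higher and 5747 lower, 3 mitochondrial genes were lower, and differences were 581 above and 951 below *ss3/4*, 0 and 1 for *ss3/4/pgm*, and 2769 and 3328 for WT. With 2 libraries per group and 3204754 counts in the shallowest *pgm* library, genes near 0 at one time have no reliable fold, and pooled seedlings do not show variation between plants.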
